A study of Mus musculus with 24 samples.

Results

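The Hox genes encode homeodomain transcription factors that pattern the body from head to tail. They lie in 4 clusters, and all 39 of them were examined here, found by symbol among the 30590 gene symbols of the day 1 to 4 count files and matched by Ensembl identifier in the other files. In the GENCODE annotation of GRCm38, the build also called mm10, the Hoxa cluster holds 11 genes at chr6:52155590-52260880 on the minus strand. The plus strand carries the 10 Hoxb genes at chr11:96194316-96368256, the 9 Hoxc genes at chr15:102921103-103036852 and the 9 Hoxd genes at chr2:74668310-74765142. The study followed directed differentiation of E14 mouse embryonic stem cells (mESCs) of 129/Ola background towards extraembryonic endoderm (XEN), a cell type of the yolk sac lineage, and sequenced their polyadenylated RNA. The 5-day protocol uses RPMI medium with 15% serum, to which all-trans retinoic acid (0.1 µM) and activin A (10 ng/mL) are added. The groups used here were AGO2 knockout (KO) cells at days 1, 2, 3 and 4 of the protocol, wild-type (WT) cells at the same days, differentiated KO cells (KO diff_XEN), differentiated WT cells (WT diff_XEN), and undifferentiated WT cells grown with serum and LIF (WT mESC, passages 33 and 42). Each group had 2 libraries. The titles mark the diff_XEN and WT mESC libraries as re-used, that is, taken from earlier work. The labels give no day for diff_XEN beyond the length of the protocol. No group received the medium without retinoic acid, so its effect cannot be told apart from that of activin A, the change of medium or time.

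Retinoic acid binds nuclear receptors that act on Hox genes directly, and in embryos and in cultured stem cells Hox genes at the 3′ end of a cluster, those of low paralog number such as Hoxb1, respond before those at the 5′ end. In pluripotent cells the clusters are held silent by Polycomb complexes. Hox proteins bind DNA together with TALE cofactors of the PBX, MEIS and PKNOX families. The clusters also hold genes for the microRNAs miR-10 and miR-196, which are loaded into Argonaute proteins such as AGO2, and AGO2 cleavage of Hoxb8 mRNA at a miR-196 site is known in the mouse.

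Total counts per library ran between 10601574 and 27147835 for days 1 to 4, and between 13941826 and 40139219 for the diff_XEN and mESC libraries. Ago2 had 33.8 to 148 CPM (counts scaled to a common library total) in the KO libraries of days 1 to 4 and 186 to 581 CPM in the WT libraries, and it was lower in KO at each day (log2 fold change between -3.27 and -1.31). In diff_XEN, Ago2 had 115 CPM in KO library C4 and 9.35 CPM in KO library 5-3, against 389 and 427 CPM in the WT libraries, a difference that did not pass the test (-2.72 ± 1.04 standard error (SE), adjusted p = 0.0808). All 12 XEN and primitive endoderm markers were higher in WT diff_XEN than in WT mESC, with summed levels of 40880 to 65470 CPM against 611 to 852 CPM. All 12 were lower in KO diff_XEN than in WT diff_XEN, with summed levels of 7733 to 9133 CPM in KO diff_XEN. The WT mESC libraries came from different passages, and the KO diff_XEN columns bear different names, C4 and 5-3. For the other groups nothing says that the 2 libraries came from separate cultures, so p-values that rest on those groups may reflect technical spread alone.

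The miR-10 and miR-196 microRNAs of the clusters are shown because AGO2 binds such molecules. Their 5p forms make up 2 seed families. Mir615, in the Hoxc cluster, has another seed and is not shown. The mature sequences are from RefSeq (GRCm38.p6) and capitals mark the seed, bases 2 to 8. Mir196a-1 lies in the Hoxb cluster at chr11:96265187-96265208 and Mir196a-2 in the Hoxc cluster at chr15:102973365-102973386, both on the plus strand, and both give miR-196a-5p. Mir196b lies in the Hoxa cluster at chr6:52230129-52230150 on the minus strand. Mir10a lies in the Hoxb cluster at chr11:96317186-96317208, and Mir10b in the Hoxd cluster at chr2:74726074-74726096, both on the plus strand.
miR-196a-5p: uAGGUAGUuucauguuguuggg
miR-196b-5p: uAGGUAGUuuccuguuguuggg
miR-10a-5p: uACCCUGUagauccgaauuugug
miR-10b-5p: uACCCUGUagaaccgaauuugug

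Below stand sites for miR-196a-5p in 4 Hox transcripts, read from GRCm38, with the bases that face the seed in capitals. They were searched in the annotated 3′ untranslated region as 22-base windows aligned without gaps. Hoxb8 (chr11:96284888-96284909, plus strand) could pair at 22 of 22 positions, 21 of them Watson-Crick and 1 a G:U wobble. Hoxa7 (chr6:52215210-52215231, minus strand) could pair at 17 positions and Hoxc8 (chr15:102993733-102993754, plus strand) at 14. Hoxd8 (chr2:74707120-74707141, plus strand) could pair at 18 positions but lacks a full seed match there. Hoxb8 lacks an exact seed match too, since its wobble faces base 5, within the seed. For Hoxb8 and Hoxd8 the window with most pairs is shown. For Hoxa7 and Hoxc8 it is the best paired window that holds a seed match, so the numbers of pairs were not chosen alike. An exact seed match was found in the longest annotated 3′ untranslated region of 9 of 39 Hox genes for miR-196, with 4 matches in Hoxa7, and of 4 of 39 for miR-10, among them Hoxa3, Hoxb3 and Hoxd1.
Hoxb8 site: cccaacaacaugaaACUGCCUa
Hoxa7 site: acuacuagcccuaaACUACCUa
Hoxc8 site: uaaaucuuuaacauACUACCUa
Hoxd8 site: cucaacaacauaaaCUUCCUAa

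The promoters of Hoxb1 and Hoxc4 are shown because these genes were highest on different days. Hoxb1 had its highest mean at day 2 in both genotypes, and Hoxc4 at day 4 in KO and day 3 in WT. Each promoter runs for 300 bases, 250 before and 50 after the start (RefSeq, GRCm38.p6), and capitals mark the motif found. The motifs searched, on both strands, were TGATNNAT, a form of the sequence bound by PBX-HOX pairs, and AGGTCA, a hexamer bound by nuclear receptors such as the retinoic acid receptors. The Hoxb1 promoter (chr11:96365508-96365807, plus strand) holds TGATGGAT 162 bases before the start, and the Hoxc4 promoter (chr15:103034145-103034444, plus strand) holds AGGTCA on the reverse strand 146 bases before the start.
Hoxb1 promoter: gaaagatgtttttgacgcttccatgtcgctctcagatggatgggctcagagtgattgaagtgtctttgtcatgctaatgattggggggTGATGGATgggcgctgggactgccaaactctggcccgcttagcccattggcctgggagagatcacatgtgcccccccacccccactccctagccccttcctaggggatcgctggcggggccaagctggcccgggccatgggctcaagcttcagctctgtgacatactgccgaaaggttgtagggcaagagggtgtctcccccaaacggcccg
Hoxc4 promoter: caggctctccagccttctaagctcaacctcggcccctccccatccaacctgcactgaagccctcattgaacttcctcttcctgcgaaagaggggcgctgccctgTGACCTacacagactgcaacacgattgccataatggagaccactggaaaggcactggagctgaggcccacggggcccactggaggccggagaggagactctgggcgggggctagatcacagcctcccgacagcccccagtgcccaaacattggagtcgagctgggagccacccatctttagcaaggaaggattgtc
The table gave 24 promoters for 22 of the Hox genes. TGATNNAT was in 4 of these 24 (16.7%), against 8.85% of all 32851 promoters, and AGGTCA was in 7 of 24 (29.2%), against 16.3% of all promoters. The Hox promoters had a median GC content of 57.7% and a median of 14.5 CG pairs, against 52.7% and 7 over all promoters, and no test was made of these shares.

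Hox RNA was scarce in WT mESC and far more abundant in KO and WT diff_XEN. The summed level of the 39 genes was 8.71 and 15.0 CPM in the WT mESC libraries. The KO libraries summed to 241 and 277 CPM for day 1, to 480 and 699 for day 2, to 495 and 638 for day 3, and to 664 and 609 for day 4. The WT libraries summed to 287 and 287 CPM for day 1, to 419 and 659 for day 2, to 576 and 785 for day 3, and to 346 and 382 for day 4. KO lay below WT on day 1 and above it on day 4 with separate ranges, whereas the ranges of days 2 and 3 overlapped. The sum was 724 and 790 CPM in KO diff_XEN and 217 and 167 CPM in WT diff_XEN. The day 1 to 4 libraries were scaled apart from the diff_XEN and mESC libraries, so levels were compared only within each set.

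**Figure D1:**
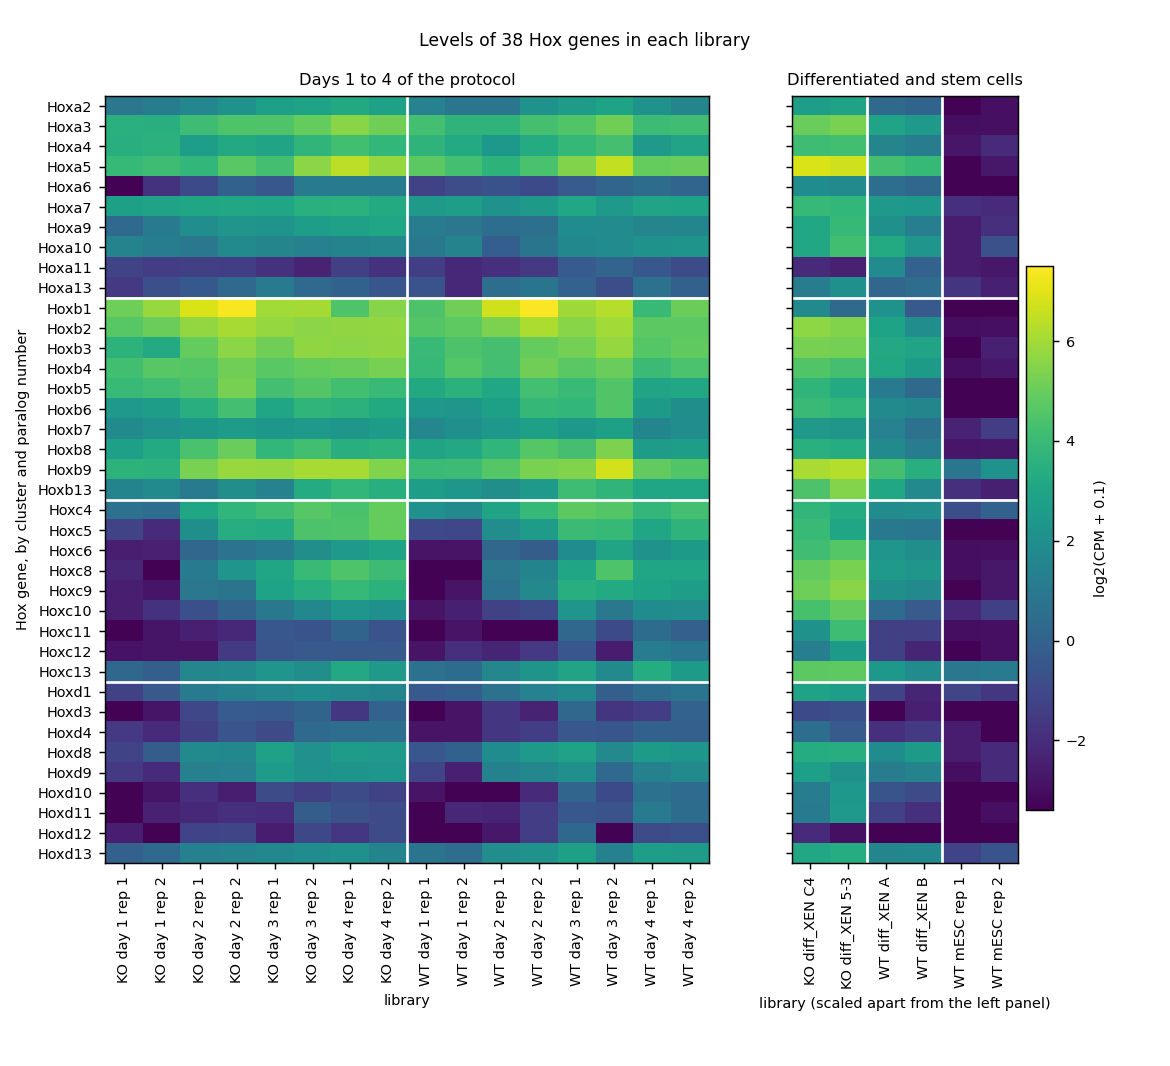
Level of 38 of the 39 Hox genes (rows, by cluster and paralog number) in each library (columns), as log2(CPM + 0.1), with days 1 to 4 on the left and diff_XEN and mESC on the right, KO before WT. Hoxb1 was bright at day 2, the Hoxc rows were dark at day 1 and brighter by day 3, and nearly all rows were dark in WT mESC.

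Per kilobase of exon, the scale on which genes can be set side by side, Hoxb1 led at day 2. It averaged 61.5 ± 15.9 CPM per kb in KO and 60.2 ± 21.5 CPM per kb in WT (SD, n = 2 each), the highest of all Hox genes in both. At day 4 the order differed. Hoxa5, which patterns the neck and the lung, led in KO day 4 with 37.3 ± 11.6 CPM per kb and had 16.6 ± 0.477 CPM per kb in WT day 4. In diff_XEN, Hoxa5 stood first in KO with 59.3 ± 4.26 CPM per kb, above Hoxb9 with 28.3 ± 2.28, and had 9.0 ± 1.54 CPM per kb in WT. At the low end, Hoxd12 had 10 counts over the KO day 4 libraries and 12 over the WT day 4 libraries, and it was too low to be tested in any comparison. The other 38 were tested in each one. Of the 39 genes, 16 share exon sequence with another annotated gene, among them Hoxa3 with Hoxaas2 and Hoxaas3, Hoxc5 with Hoxc10, and Hoxd3 with Hoxd4, and their counts are uncertain to that extent.

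In KO cells, day 4 differed from day 1 in all 4 clusters. All 9 Hoxc genes and all 8 tested Hoxd genes rose, as did 6 of 11 Hoxa genes (Hoxa2, Hoxa3, Hoxa5, Hoxa6 and Hoxa9 among them) and 5 of 10 Hoxb genes (Hoxb2, Hoxb3, Hoxb4, Hoxb9 and Hoxb13). In all, 28 of 38 were higher at day 4 and 0 lower at an adjusted p below 0.05, whereas 33.3% of all genes tested were higher and 32.9% lower. The median log2 fold change was 2.17 over the 38 Hox genes and -0.02 over all genes. By paralog number, 10 of 12 genes of groups 1 to 4 rose, as did 6 of 11 of groups 5 to 8 and 12 of 15 of groups 9 to 13.

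The thoracic genes Hoxc8 and Hoxc9, which pattern the rib-bearing vertebrae, were almost silent at first. Hoxc9 had 14.8 and 12.2 CPM in KO day 4, against 0.0773 and 0.0461 CPM in KO day 1. That is 394 counts against 3, a 212-fold ratio with a 95% counting interval of 72.0 to 1032. Hoxc8 had 22.4 and 16.6 CPM in KO day 4, against 0.116 and 0 CPM in KO day 1, a 305-fold ratio of counts (104 to 1483). The day 4 and day 1 libraries were thus far apart for both genes, and the intervals cover counting error only. Their 3′ neighbours moved likewise. Hoxc4 had 20.4 and 30.1 CPM in KO day 4, against 1.51 and 1.33 CPM in KO day 1 (log2 fold change 4.14 ± 0.39 SE, adjusted p = 9.84e-07). Hoxc5 had 22.3 and 29.9 CPM in KO day 4, against 0.348 and 0.138 CPM in KO day 1 (6.67 ± 0.63, adjusted p = 1.42e-06). For Hoxc6 and the lumbar gene Hoxc10 the changes were 6.13 ± 0.59 and 5.09 ± 0.59. Hoxc13, which is needed for hair and nails, changed by 2.85 ± 0.44.

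In the other clusters several genes near the 3′ end were already well expressed in KO day 1 and gained less. Hoxb3, a hindbrain gene, had 48.6 and 50.8 CPM in KO day 4, against 12.6 and 9.62 CPM in KO day 1 (2.16 ± 0.30, adjusted p = 2.94e-05). Hoxa3, needed for thymus and parathyroid, had 47.6 and 35.5 CPM in KO day 4, against 11.2 and 10.7 CPM in KO day 1 (1.92 ± 0.28, adjusted p = 3.84e-05). Both genes had separate ranges at the 2 days. The posterior gene Hoxa9 changed by 2.24 ± 0.31, and among the Hoxd genes Hoxd8 changed by 3.36 ± 0.47 and Hoxd9 by 4.61 ± 0.60. Hoxb1 had 22.4 and 45.8 CPM in KO day 4, against 33.9 and 56.6 CPM in KO day 1, with overlapping libraries (-0.40 ± 0.42, adjusted p = 0.417). Hoxb8, whose loss in mice alters grooming, had 11.0 and 12.6 CPM in KO day 4, against 6.65 and 9.62 CPM in KO day 1 (0.54 ± 0.36, adjusted p = 0.20). Of the 28 calls, 22 were kept under every alternative. Without KO day 1 replicate 1 the calls of Hoxb2 (log2 0.59, adjusted p = 0.0909), Hoxb4 (0.44, 0.337), Hoxd3 (adjusted p = 0.0671), Hoxd10 (0.0769) and Hoxd11 (0.126) were lost, and with KO day 1 replicate 2 left out that of Hoxb4 (0.99, 0.0518) was among 2 lost. Without KO day 4 replicate 1 there were 3 lost, those of Hoxb4 (0.79, 0.0899) and Hoxd11 (3.13, 0.0608) among them, and without KO day 4 replicate 2 those of Hoxb4 (0.55, 0.237) and Hoxd3 (adjusted p = 0.165), whose day 1 total was 1 count. Leaving out 1 KO day 1 library also moved some calls that were kept by over 1.5 times. Without replicate 1 the change of Hoxc5 was 7.43 and that of Hoxc10 was 4.51, and without replicate 2 those of Hoxc10 and Hoxd8 were 5.76 and 4.02. The fitted changes of Hoxa6, Hoxc8, Hoxc11, Hoxd1, Hoxd3, Hoxd10 and Hoxd11 moved by over 1.5 times as well.

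In WT cells the day 4 increase lay mainly in the Hoxc and Hoxd clusters. All 9 Hoxc genes rose, and 7 of 8 Hoxd genes (Hoxd3, Hoxd4, Hoxd8, Hoxd9, Hoxd10, Hoxd11 and Hoxd13), together with Hoxa10 and Hoxa13 but with 0 of 10 Hoxb genes. In total 18 of 38 were higher at day 4 and 0 lower, whereas 26.9% of all genes tested were higher and 21.6% lower. Under some of the alternatives 1 or 2 Hox genes were called lower as well. The median log2 fold change was 1.16 over the Hox genes and 0.01 over all genes, and by cluster it was 5.28 for Hoxc, 3.94 for Hoxd, 0.53 for Hoxa and -0.08 for Hoxb. By paralog number 3 of 12 genes of groups 1 to 4 rose, as did 4 of 11 of groups 5 to 8 and 11 of 15 of groups 9 to 13.

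Hoxc8 had 8.17 and 7.95 CPM in WT day 4 and 0 counts in both WT day 1 libraries. With 202 counts in WT day 4, set against 3 counts over the WT day 1 libraries as the most that a count of 0 allows, it was at least 131-fold higher. Hoxc9 had 7.54 and 6.37 CPM in WT day 4, against 0 and 0.0421 CPM in WT day 1, a 336-fold ratio of 173 counts to 1 (59.5 to 13339). Both genes were thus at or near zero in WT day 1 as they were in KO day 1. Hoxc6 had a 126-fold ratio (34.2 to 1053), Hoxc10 60.2-fold (19.96 to 297), Hoxd10 66.0-fold (11.1 to 2682) and Hoxd4, a 3′ gene of its cluster, 21.4-fold (5.25 to 187). Hoxc4 had 14.1 and 18.8 CPM in WT day 4, against 4.17 and 3.20 CPM in WT day 1 (2.16 ± 0.35, adjusted p = 0.000183). Hoxc5 changed by 4.73 ± 0.59, Hoxc12 by 4.17 ± 0.73, Hoxc13 by 2.51 ± 0.43, Hoxd8 by 2.79 ± 0.45 and Hoxd9 by 3.66 ± 0.60. Hoxb1 (-0.21 ± 0.43) and Hoxb8 (-0.41 ± 0.37) did not pass the test. Of the 18 calls, 15 were kept under every alternative. Hoxa10 lost its call without WT day 1 replicate 1 (log2 0.72, adjusted p = 0.225), WT day 4 replicate 1 (1.00, 0.0957) or WT day 4 replicate 2 (0.94, 0.115). Hoxa13 lost it without WT day 1 replicate 2 (1.02, 0.219) and also without WT day 4 replicate 1 (1.28, 0.226), and Hoxd3, with 1 count at day 1, when either WT day 1 replicate 1 (adjusted p = 0.0788) or WT day 4 replicate 2 (0.173) was left out. Among calls that were kept, the change of Hoxc12 was 3.47 and that of Hoxd9 4.98 without WT day 1 replicate 1, and they were 5.37 and 2.96 without WT day 1 replicate 2. The fitted changes of Hoxa13, Hoxc9, Hoxc11, Hoxd3, Hoxd10 and Hoxd11 also moved by over 1.5 times with 1 WT day 1 library left out.

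**Figure D2:**
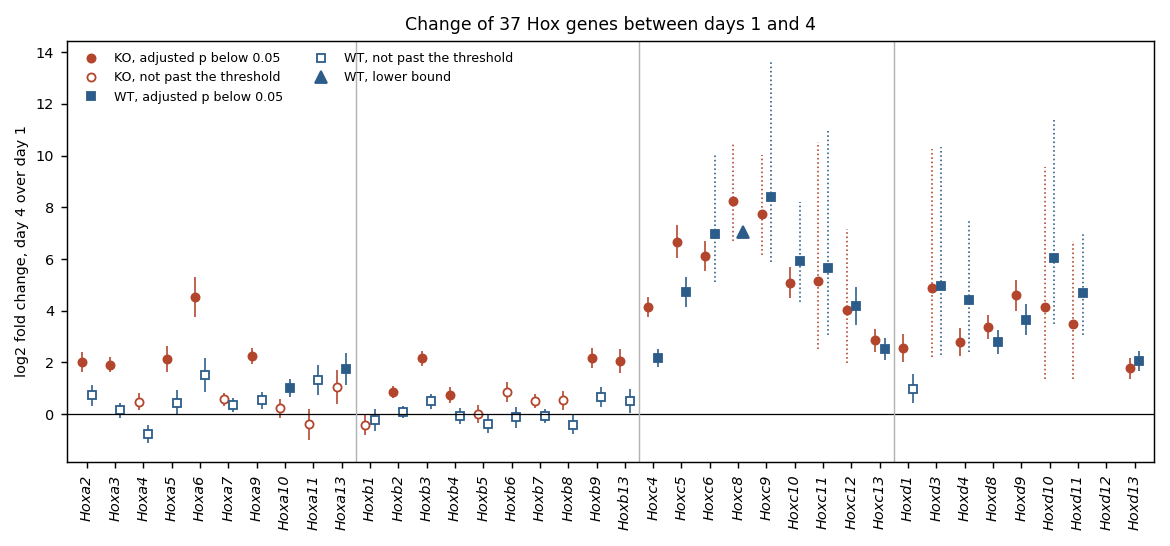
Log2 fold change of day 4 over day 1 for 37 tested Hox genes (circles KO, squares WT; filled where the adjusted p was below 0.05), with bars of 1 SE. Dotted bars are 95% counting intervals where the day 1 total was 1 to 3 counts, and the triangle is the lower bound of Hoxc8 in WT. The 9 Hoxc genes and most Hoxd genes lie well above 0 in both genotypes, whereas the WT squares of the Hoxb genes lie around 0.

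Both increases ran beside changes in cell type markers, whose part in the result was not tested. Over all genes, 33.3% rose and 32.9% fell in KO, and 26.9% rose and 21.6% fell in WT. All 9 lateral mesoderm and mesenchyme markers rose in both genotypes, to a summed 1001 to 1381 CPM in KO day 4, against 18.97 to 22.3 CPM in KO day 1, and to 678 to 1336 CPM in WT day 4, against 36.9 to 38.9 CPM in WT day 1. At day 1 Col3a1 was at 0 in KO and Hand2 at 0 in WT. All 12 XEN and primitive endoderm markers rose too, to 2939 to 4046 CPM in KO day 4, against 387 to 410 CPM in KO day 1, and to 10030 to 11310 CPM in WT day 4, against 586 to 618 CPM in WT day 1. Pluripotent cell markers fell, 8 of 8 in KO and 7 of 8 in WT, to 93.9 to 201 CPM in KO day 4, against 2709 to 2781 CPM in KO day 1, and to 230 to 421 CPM in WT day 4, against 2005 to 2387 CPM in WT day 1. Of 7 neural markers tested, 3 rose and 1 fell in KO, and 4 rose and 1 fell in WT, with Neurog2 and Olig2 at 0 in KO day 4. In bulk RNA, fewer cells of a type and less RNA per cell cannot be told apart.

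The steps were also followed day by day. From day 1 to day 2, 22 of 38 Hox genes were higher and 0 lower at KO day 2 (22.9% and 20.1% of all genes), and 14 were higher and 0 lower at WT day 2 (12.6% and 8.62% of all genes). Of these calls 11 in KO and 6 in WT were kept under every alternative. The genes higher at KO day 2 included Hoxa3, Hoxa6, Hoxa9, Hoxb1, Hoxb2, Hoxb3, Hoxb6, Hoxb8, Hoxb9, Hoxc4 to Hoxc10, Hoxc13, Hoxd1, Hoxd3, Hoxd8, Hoxd9 and Hoxd13. Those higher at WT day 2 included Hoxa13, Hoxb1, Hoxb2, Hoxb8, Hoxc4 to Hoxc9, Hoxc13, Hoxd8, Hoxd9 and Hoxd13. Hoxb1 had its highest values on day 2. In KO cells its CPM were 33.9 and 56.6 on day 1, 117 and 169 on day 2, 62.9 and 66.2 on day 3, and 22.4 and 45.8 on day 4. In WT cells they were 21.6 and 34.9 on day 1, 104 and 175 on day 2, 62.3 and 77.4 on day 3, and 15.8 and 32.6 on day 4. Both genotypes were thus highest at day 2, with separate ranges at days 1 and 2. The rise to day 2 passed the test in KO (1.66 ± 0.42, adjusted p = 0.00869) and in WT (2.31 ± 0.43, adjusted p = 0.00333). Neither the step from day 2 to day 3 nor that from day 3 to day 4 passed in either genotype. Day 4 was not tested against day 2, so the whole fall from the highest values was not tested. The Hoxb1 call was lost in KO without KO day 1 replicate 1 or KO day 2 replicate 2 (adjusted p up to 0.0875), and in WT without WT day 1 replicate 1 (0.0530). Hoxb8 rose to day 2 in KO (1.68 ± 0.35, adjusted p = 0.00219) and in WT (1.21 ± 0.35, adjusted p = 0.0255). The WT Hoxb8 call was lost when any of WT day 1 replicate 1, WT day 1 replicate 2 and WT day 2 replicate 2 was left out (adjusted p up to 0.317).

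Later steps differed in their counts. At day 3 against day 2, 3 Hox genes were higher in KO, namely Hoxc9 (2.37 ± 0.35), Hoxc10 (1.71 ± 0.48) and Hoxc11 (2.52 ± 0.74), and 0 lower (6.08% and 3.27% of all genes), of which Hoxc9 was called under every alternative. In WT, 15 were higher and 0 lower (8.0% and 5.34% of all genes), namely Hoxa4, Hoxa5, Hoxa9, Hoxa10, Hoxa11, Hoxb9, Hoxb13, Hoxd10 and 7 Hoxc genes, Hoxc4 to Hoxc11. Of these 15, Hoxc6, Hoxc9 and Hoxc10 were called under every alternative, and 12 were lost without WT day 2 replicate 1. At day 4 against day 3, KO had 0 higher and 0 lower by edgeR's quasi-likelihood test (0.164% and 0.187% of all genes). There were 4 at an unadjusted p below 0.05 and 0 by DESeq2, with no share of all genes worked out for either. WT had 0 higher and 3 lower (0.797% and 0.424% of all genes), namely Hoxb8 (-2.26 ± 0.38, adjusted p = 0.0182), Hoxb6 (-1.97 ± 0.41, 0.0389) and Hoxb2 (-1.04 ± 0.24, 0.0496). Hoxb8 had 6.11 and 6.37 CPM in WT day 4, against 19.2 and 40.5 CPM in WT day 3. All 3 of these calls were lost without WT day 3 replicate 2, the library high in Hoxb8 (-1.62 without it), and without either WT day 4 library (adjusted p up to 0.355).

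By highest group mean, 1 Hox gene was highest at day 1, 8 at day 2, 5 at day 3 and 25 at day 4 in KO cells, and 0, 5, 21 and 13 genes at those days in WT cells. All 9 Hoxc genes were highest at day 4 in KO, whereas 5 were highest at day 3 and 4 at day 4 in WT. Among the Hoxb genes, 6 were highest at day 2 in KO, and 7 at day 3 in WT. The spread behind the WT day 3 means was large, since Hoxb9 had 43.5 and 108 CPM there and Hoxa5 43.1 and 91.5 CPM. The libraries of a day 3 group also differed in summed pluripotent cell markers, with 218 to 802 CPM in KO and 458 to 1062 CPM in WT. The part of this difference in the day 3 results was not tested.

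**Figure D3:**
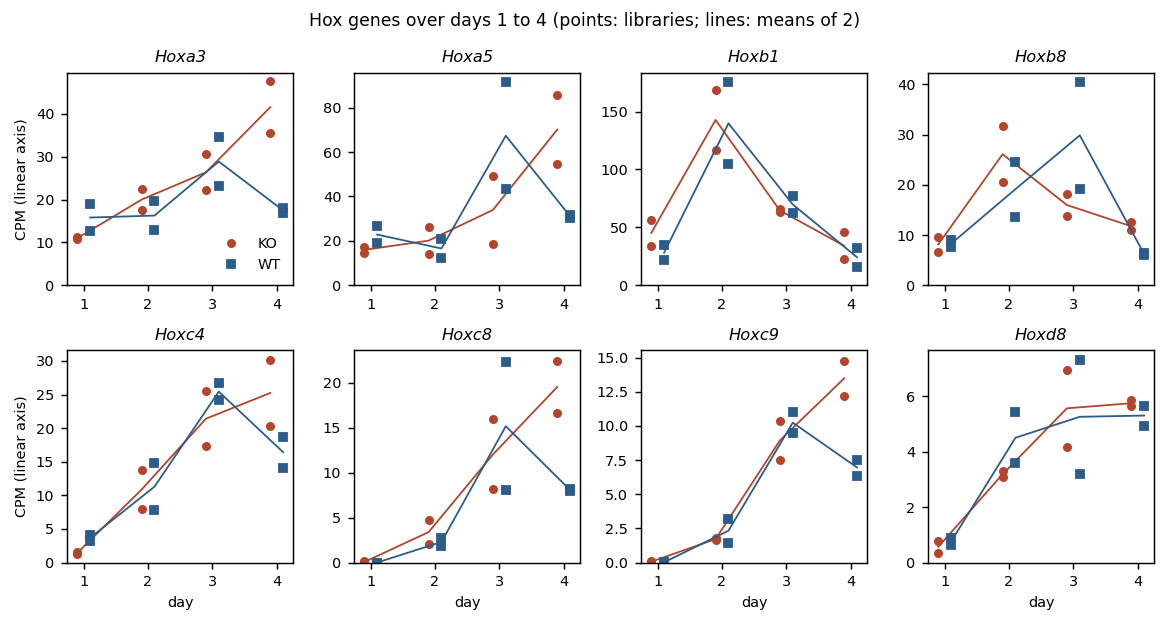
CPM of 8 Hox genes over days 1 to 4 (linear axes; circles KO and squares WT, 1 point per library; lines join the means of 2). Hoxb1 was highest at day 2 in both genotypes, and the Hoxc genes started near 0 and had a higher mean at each later day in KO.

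**Figure D4:**
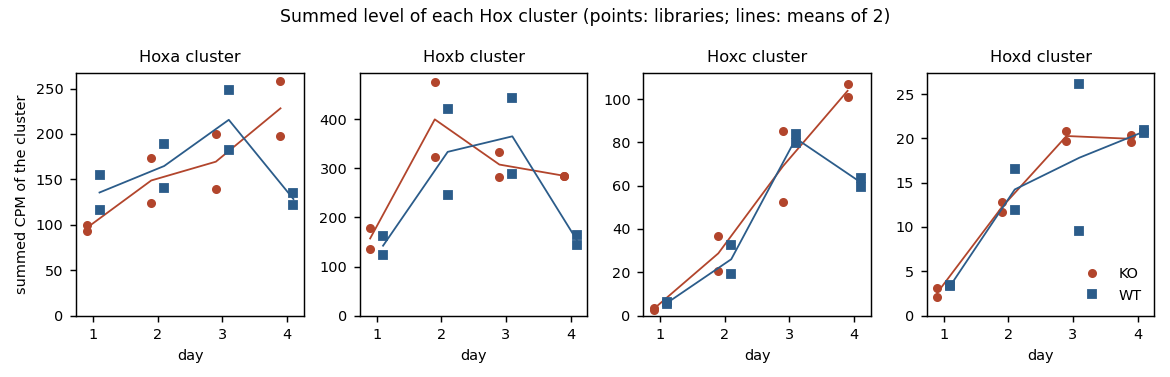
Summed CPM of the genes of each cluster over days 1 to 4 (linear axes starting at 0; circles KO and squares WT, 1 point per library; lines join the means of 2). At day 4 the KO points lie above the WT points for the Hoxa, Hoxb and Hoxc clusters, and beside them for Hoxd.

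The cluster sums show where the genotypes parted. At day 4 the Hoxa sum was 259 and 198 CPM in KO and 122 and 135 CPM in WT, the Hoxb sum 285 and 285 CPM in KO and 143 and 163 CPM in WT, and the Hoxc sum 101 and 107 CPM in KO and 59.4 and 63.8 CPM in WT. The Hoxd sum was 20.3 and 19.5 CPM in KO and 20.9 and 20.6 CPM in WT. These ranges were separate for all 4 clusters, with KO above WT in Hoxa, Hoxb and Hoxc and slightly below WT in Hoxd.

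Gene by gene, few of the KO and WT differences passed the test within a day. At day 4, Hoxa3, Hoxa4, Hoxa9 and Hoxb2 were higher in KO and 0 Hox genes were lower, 4 of 38, whereas 1.99% of all genes were higher and 5.05% lower. Hoxa3 had 47.6 and 35.5 CPM in KO day 4, against 17 and 18 CPM in WT day 4 (1.25 ± 0.28, adjusted p = 0.0132). Hoxa4 had 18.4 and 14.1 CPM in KO day 4, against 5.39 and 7.80 CPM in WT day 4 (1.29 ± 0.35, adjusted p = 0.0394). Hoxa9 had 7.06 and 7.92 CPM in KO day 4, against 2.87 and 2.94 CPM in WT day 4 (1.36 ± 0.30, adjusted p = 0.0136). Hoxb2, a hindbrain gene, had 52.1 and 52.5 CPM in KO day 4, against 27.2 and 27.1 CPM in WT day 4 (0.95 ± 0.24, adjusted p = 0.026). The libraries of these 4 genes did not overlap. Hoxb1 (0.49 ± 0.43) and Hoxb8 (0.91 ± 0.37) did not pass the test. The median over the 38 genes was 0.66, against 0.00 over all genes. At an unadjusted p below 0.05 there were 20 genes, but the share of all genes at that threshold was not worked out. The median was 0.92 for paralog groups 1 to 4, 0.91 for groups 5 to 8 and -0.47 for groups 9 to 13. As a description across 38 genes that share the same libraries, Spearman's rho between paralog number and log2 fold change was -0.51. The summed level of groups 9 to 13 was nonetheless higher in KO day 4, with 98.2 to 133 CPM, against 70.6 to 84.0 CPM in WT day 4. Some genes behind the median of -0.47 had few counts, such as Hoxa11 with 4 and 3 in KO day 4. At the posterior end Hoxd10 had 0.451 and 0.309 CPM in KO day 4, against 1.53 and 1.22 CPM in WT day 4 (-1.84 ± 0.65, adjusted p = 0.113). With 1 library left out, the count of 4 fell to 0 without KO day 4 replicate 1 or either WT day 4 library, and to 1, Hoxa3, without KO day 4 replicate 2, where the lost calls had log2 fold changes of 0.96 to 1.63 and adjusted p of 0.0529 to 0.239. Of the 4 calls, 0 were kept under every alternative. DESeq2 called 12 genes, again with no share of all genes worked out. At day 4, 9 of 12 XEN and primitive endoderm markers were also lower in KO, with the sums given above, and their part in the result was not tested.

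At day 1, Hoxc4 was lower in KO, with 1.51 and 1.33 CPM in KO day 1, against 4.17 and 3.20 CPM in WT day 1 (-1.37 ± 0.39, adjusted p = 0.036). It was 1 of 2 Hox genes that were lower at day 1, with 0 of 38 higher (6.89% and 6.71% of all genes). At day 2 Hoxa9 was higher in KO, with 3.78 and 4.73 CPM in KO day 2, against 1.36 and 1.43 CPM in WT day 2 (1.60 ± 0.31, adjusted p = 0.0174), which made 1 higher and 0 lower (0.774% and 0.853% of all genes). At day 3 Hoxa11, a gene of limb and uterus, was lower in KO, with 0.188 and 0.0969 CPM in KO day 3, against 0.739 and 1.02 CPM in WT day 3 (-2.44 ± 0.58, adjusted p = 0.0272), or 0 higher and 1 lower (1.83% and 3.0% of all genes). The KO day 3 values of Hoxa11 rest on 5 counts and 1 count. Each of these calls was lost without at least 1 library. Hoxc4 lost its call without any 1 of the 4 day 1 libraries (adjusted p of 0.0776 to 0.317). Hoxa9 lost it without any 1 of the 4 day 2 libraries (0.0587 to 0.218), and Hoxa11 without either KO day 3 library or WT day 3 replicate 2 (0.105 to 0.231), whereas leaving out WT day 3 replicate 1 gave 5 calls at day 3.

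Whether the change from day 1 to day 4 itself differed between KO and WT was tested as an interaction. It was larger in KO for 5 of 38 Hox genes, Hoxa3, Hoxa9, Hoxb3 and Hoxc4 among them, and smaller for 0, whereas 2.59% of all genes had a larger and 3.83% a smaller change. For Hoxa3 the difference of log2 changes was 1.77 ± 0.39 (adjusted p = 0.0208), with a change of 1.92 in KO and 0.14 in WT. For Hoxc4 it was 1.98 ± 0.51 (adjusted p = 0.0356), with 4.14 in KO and 2.16 in WT, and Hoxc4 stood lower in KO at day 1. Hoxa9 (1.71 ± 0.44) and Hoxb3 (1.65 ± 0.41) followed. Hoxb1 (-0.19 ± 0.60) and Hoxb8 (0.94 ± 0.52) did not pass the test. With 1 library left out, 0 to 4 of these 5 calls were left, 0 without KO day 4 replicate 1 or WT day 4 replicate 1, 4 without KO day 1 replicate 1 and 1 without any other library, with adjusted p of 0.0502 to 0.172 where lost. These comparisons share libraries with the day 4 against day 1 contrasts and are not independent of them.

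Differentiated WT cells carried Hox transcripts that WT mESC lacked or nearly lacked. In WT diff_XEN, 35 of 38 Hox genes were higher than in WT mESC and 0 lower, with Hoxd1, Hoxd3 and Hoxd4 the exceptions, whereas 27.2% of all genes were higher and 25.3% lower. The counts of these groups are re-used and were deposited separately, so cell state cannot be told apart from the source of the data. The median log2 fold change was 5.08, or 4.95 with genes at 0 in WT mESC put at their lower bound, against 0.00 over all genes. Hoxa5 had 18.9 and 14.8 CPM in WT diff_XEN, against 0 and 0.0548 CPM in WT mESC, a 661-fold ratio of 1243 counts to 2 (182 to 5461). Hoxa3 had a 259-fold ratio (71.3 to 2143), Hoxb2 217-fold (59.6 to 1796), Hoxb3 216-fold (73.5 to 1049), Hoxb4, a regulator of blood stem cells, 185-fold (62.8 to 898), Hoxc6 170-fold (46.5 to 1406), Hoxc9 143-fold (39.2 to 1187) and Hoxc8 138-fold (46.8 to 671). Hoxb6, Hoxb1, Hoxc5, Hoxb5, Hoxa6 and Hoxd10 had 0 counts in WT mESC and were at least 82.9-fold, 67.3-fold, 47.5-fold, 42.5-fold, 31.9-fold and 13.1-fold higher in WT diff_XEN.

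Some Hox genes were already present in WT mESC. Hoxb9 had 19.3 and 11.1 CPM in WT diff_XEN, against 1.75 and 4.39 CPM in WT mESC (2.31 ± 0.47, adjusted p = 0.0054). Hoxa7 changed by 5.11 ± 0.41 and Hoxb8 by 5.64 ± 0.55. In WT mESC, 3 Hox genes reached 1 CPM in each library, Hoxb9 and Hoxc13 among them, and 14 and 9 had 0 counts. Hoxb1 differed between the WT diff_XEN libraries, with 4.46 and 0.683 CPM, and Hoxa11 likewise, with 3.52 and 0.929 CPM. Without 1 of the 4 libraries 30 to 34 of the 35 calls were left. Lost calls were those of Hoxc10, Hoxc11, Hoxc12, Hoxc13 and Hoxd11 without WT diff_XEN library A, Hoxc11 without WT diff_XEN library B, Hoxc10, Hoxc11, Hoxc12 and Hoxd11 without WT mESC replicate 1, and Hoxc11, Hoxc12 and Hoxd11 without WT mESC replicate 2, with adjusted p of 0.0508 to 0.18. The change of Hoxb9 was 3.12 without WT mESC replicate 2. Leaving out 1 library moved the fitted changes of other called Hox genes by over 1.5 times too, among them Hoxa5, Hoxb1, Hoxb3, Hoxb4, Hoxc8 and Hoxc9.

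Differentiated KO cells carried more Hox RNA from all 4 clusters than differentiated WT cells did. In KO diff_XEN 33 of 38 Hox genes were higher than in WT diff_XEN and Hoxa11 was lower, whereas 22.1% of all genes were higher and 24.9% lower. Among the 4 that did not pass the test were Hoxa10, Hoxa13 and Hoxb1. The median log2 fold change was 2.32 over the Hox genes and -0.02 over all genes, and it was 2.39 for paralog groups 1 to 4, 2.22 for groups 5 to 8 and 2.56 for groups 9 to 13. Spearman's rho between paralog number and log2 fold change was 0.03 across the 38 genes.

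Hoxa5 had 117 and 106 CPM in KO diff_XEN, against 18.9 and 14.8 CPM in WT diff_XEN (2.74 ± 0.20, adjusted p = 0.00224). Hoxc9 had 34.3 and 46.6 CPM in KO diff_XEN, against 3.92 and 3.39 CPM in WT diff_XEN (3.5 ± 0.27, adjusted p = 0.00224). Hoxc10 had 19.8 and 29.2 CPM in KO diff_XEN, against 1.25 and 0.738 CPM in WT diff_XEN (4.65 ± 0.41, adjusted p = 0.00246). In each of these genes both KO libraries lay far above both WT libraries. Going from low to high paralog number, Hoxd1, which acts in sensory neurons, had 7.31 and 6.42 CPM in KO diff_XEN, against 0.352 and 0.109 CPM in WT diff_XEN (4.89 ± 0.59, adjusted p = 0.0036; 5.91 without WT library A). Hoxb2 had 50.1 and 43.0 CPM in KO diff_XEN, against 7.39 and 3.69 CPM in WT diff_XEN (3.09 ± 0.37, adjusted p = 0.00362). Changes of 2.47 ± 0.28, 2.22 ± 0.20 and 2.84 ± 0.27 were found for Hoxa3, Hoxb3 and Hoxa4. The central genes Hoxb6, Hoxc6 and Hoxc8 changed by 2.22 ± 0.26, 2.33 ± 0.29 and 2.73 ± 0.25, and Hoxc13 by 2.67 ± 0.28.

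Several posterior genes had uneven KO libraries. Hoxc11 had 4.44 and 17 CPM in KO diff_XEN, against 0.298 and 0.301 CPM in WT diff_XEN (5.20 ± 0.80, adjusted p = 0.00598), and Hoxb13 had 21.7 and 44.7 CPM in KO diff_XEN, against 8.34 and 3.25 CPM in WT diff_XEN (2.56 ± 0.58, adjusted p = 0.018). Library 5-3 was the higher KO library in both. Hoxa11 went the other way, with 0.137 and 0.0868 CPM in KO diff_XEN, against 3.52 and 0.929 CPM in WT diff_XEN (-4.33 ± 0.94, adjusted p = 0.0159), that is 5 counts over the KO libraries against 164 over the WT libraries. It shares exon sequence with Hoxa11os on the other strand. Hoxb1, which did not pass, had 3.35 and 1.19 CPM in KO diff_XEN, against 4.46 and 0.683 CPM in WT diff_XEN (-0.21 ± 0.95, adjusted p = 0.873). Its ranges overlapped widely.

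Of the 34 calls in diff_XEN, 22 were kept under every alternative. Without KO library C4, the calls of Hoxa6, Hoxa11 (log2 -4.55, adjusted p = 0.0656), Hoxb7, Hoxd3, Hoxd4, Hoxd8 and Hoxd9 were lost (adjusted p up to 0.207). Without KO library 5-3 those of Hoxa6, Hoxa9 (1.43, 0.105), Hoxa11 (-3.97, 0.0985), Hoxb7, Hoxb13 (1.92, 0.0755), Hoxd4, Hoxd8, Hoxd9, Hoxd10 (2.17, 0.061) and Hoxd13 (1.49, 0.0575) were lost, and the change of Hoxc11 was 3.89 (adjusted p = 0.017). Without WT library A those of Hoxa6, Hoxd3, Hoxd4, Hoxd8 and Hoxd9 were lost (up to 0.145), Hoxa11 stood at -3.10 and Hoxb13 at 3.36. Without WT library B those of Hoxa6, Hoxa9, Hoxb7, Hoxb13, Hoxd4, Hoxd9, Hoxd10 and Hoxd11 were lost (up to 0.101), and Hoxa11 stood at -4.96. The change of Hoxc11 was 5.89 without KO library C4, and the fitted changes of Hoxc12, Hoxd3 and Hoxd11 also moved by over 1.5 times with 1 library left out. Markers of some other cell types also differed between the genotypes in diff_XEN, and their part in the result was not tested. Over all genes, 22.1% were higher and 24.9% lower in KO diff_XEN. Of 9 lateral mesoderm and mesenchyme markers 7 were higher in KO diff_XEN, with summed levels of 2454 to 3887 CPM in KO diff_XEN and 277 to 530 CPM in WT diff_XEN and none at 0. Of 6 neural markers tested 5 were higher, with 404 to 487 CPM in KO diff_XEN and 51.0 to 79.0 CPM in WT diff_XEN, Neurog2 and Olig2 being at 0 in KO and Olig2 at 0 in WT. Of 6 primitive streak and paraxial mesoderm markers tested 2 were higher, with 49.6 to 113 CPM in KO diff_XEN and 6.89 to 13.99 CPM in WT diff_XEN, T and Msgn1 being at 0 in KO. Of 7 trophoblast markers 2 were higher and 2 lower, shares near those of all genes. They summed to 76.3 to 139 CPM in KO diff_XEN and 27.1 to 44.7 CPM in WT diff_XEN, with Cdx2 at 0 in KO. Of 7 pluripotent cell markers tested 5 were lower, with 48.9 to 54.6 CPM in KO diff_XEN and 265 to 283 CPM in WT diff_XEN.

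**Figure D5:**
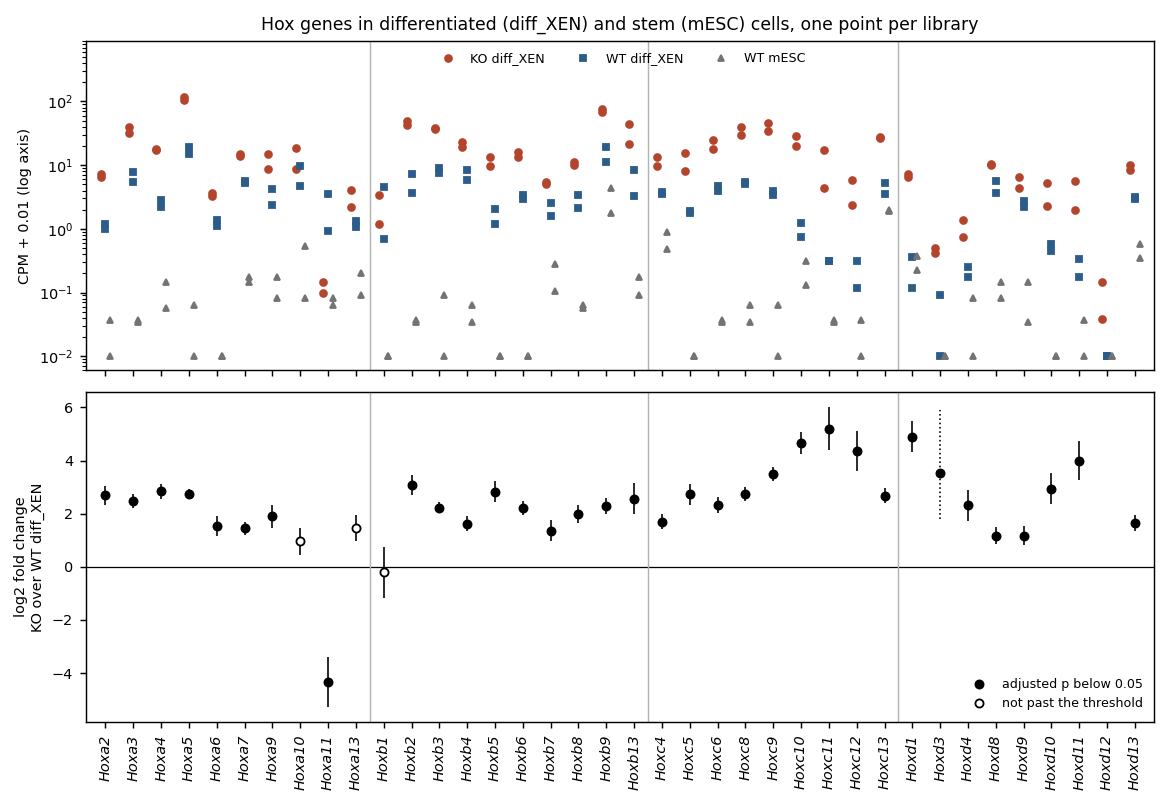
Upper panel, CPM + 0.01 (log axis) of 38 Hox genes in the 2 libraries of KO diff_XEN (circles), WT diff_XEN (squares) and WT mESC (triangles). Lower panel, log2 fold change of KO over WT diff_XEN with bars of 1 SE, filled where the adjusted p was below 0.05, and with a dotted 95% counting interval for Hoxd3, which had 3 counts in WT. Nearly all points lie above 0, Hoxb1 lies near it, and Hoxa11 lies below.

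The 4 genes whose miR-196 sites are printed above were all higher in KO diff_XEN than in WT diff_XEN. So were 33 of all 38 Hox genes tested, and 22.1% of all genes. Among genes with an exact miR-196 seed match, Hoxa4, Hoxa5, Hoxa7, Hoxa9, Hoxb6, Hoxb7 and Hoxc8 were higher in KO diff_XEN. Hoxb1, which has such a match too, did not pass the test. Hoxb8 had 11.3 and 10.2 CPM in KO diff_XEN, against 3.35 and 2.13 CPM in WT diff_XEN (2.00 ± 0.33, adjusted p = 0.00749). Hoxc8 had 29.7 and 39.2 CPM in KO diff_XEN, against 5.47 and 5.11 CPM in WT diff_XEN (2.73 ± 0.25, adjusted p = 0.00248). Hoxa7 changed by 1.44 ± 0.23 and Hoxd8 by 1.16 ± 0.32. Their median was 1.72, against 2.32 over all 38 Hox genes. At day 4 their median between KO and WT was 0.69, against 0.66 over all 38 Hox genes. Among the 4 genes with a miR-10 seed match, Hoxa3, Hoxb3 and Hoxd1 were higher in KO diff_XEN. Neither mature microRNAs nor cleaved transcripts were measured in these libraries, and a link of either to AGO2 was not tested.

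TALE cofactors help Hox proteins to bind many of their sites. From day 1 to day 4, 5 of 9 rose and 1 fell in KO (33.3% and 32.9% of all genes), and 5 rose and 1 fell in WT (26.9% and 21.6% of all genes). Meis1 averaged 128 ± 9.19 CPM in KO day 4 and 4.73 ± 0.368 CPM in KO day 1 (SD, n = 2 each; log2 fold change 4.75 ± 0.29), and 71.7 ± 6.43 CPM in WT day 4 and 4.88 ± 0.354 CPM in WT day 1 (3.87 ± 0.28). Meis2 rose in KO (3.32 ± 0.25) and in WT (2.99 ± 0.25), and Meis3 rose in WT (2.49 ± 0.24). In KO, Meis3 had 21.4 and 17.2 CPM at day 4, against 4.48 and 4.79 CPM at day 1. At day 4, 3 of 9 were higher in KO than in WT (1.99% of all genes), Pknox2 (1.12 ± 0.19) and Pbx3 (0.80 ± 0.17) among them. In diff_XEN 7 of 9 were higher in KO and 0 lower (22.1% and 24.9% of all genes), among them Pknox2 (3.60 ± 0.34), Meis2 (2.23 ± 0.26) and Pbx2 (1.43 ± 0.18). In WT diff_XEN 5 of 9 were higher than in WT mESC and 0 lower (27.2% and 25.3% of all genes).

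Among genes of retinoic acid reception and metabolism, 10 of 19 rose and 4 fell from day 1 to day 4 in KO (33.3% and 32.9% of all genes), and 6 rose and 3 fell in WT, shares near the 26.9% and 21.6% of all genes. Rdh10, which oxidises retinol, rose in KO (4.11 ± 0.39) and in WT (3.87 ± 0.39), the receptor gene Rarg fell in KO (-2.02 ± 0.21) and in WT (-1.98 ± 0.21), Rarb rose in KO (2.49 ± 0.24) and Crabp2 rose in WT (2.17 ± 0.28). In diff_XEN 11 of 18 were higher in KO and 1 lower (22.1% and 24.9% of all genes). Rarg was higher (2.68 ± 0.31). Cyp26a1, which breaks retinoic acid down, averaged 83.0 ± 7.94 CPM in KO diff_XEN and 822 ± 242 CPM in WT diff_XEN (-3.28 ± 0.27, adjusted p = 0.00243). In WT diff_XEN 9 of 19 were higher and 3 lower than in WT mESC (27.2% and 25.3% of all genes).

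Of 10 axial regulators upstream of Hox genes, 3 rose and 3 fell from day 1 to day 4 in KO, shares near the 33.3% and 32.9% of all genes, and 5 rose and 2 fell in WT (26.9% and 21.6% of all genes). Gdf11, a ligand that promotes posterior Hox expression, rose in KO (2.88 ± 0.31) and in WT (2.00 ± 0.30), Cdx1 fell in KO (-2.02 ± 0.36) and in WT (-3.0 ± 0.38), and Cdx2 fell in KO (-2.40 ± 0.45). In diff_XEN 2 of 6 were higher and 2 lower in KO (22.1% and 24.9% of all genes), Gdf11 (2.66 ± 0.23) among the higher, and in WT diff_XEN 4 of 6 were higher and 0 lower than in WT mESC (27.2% and 25.3% of all genes).

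Of 27 Polycomb genes, 13 rose and 9 fell from day 1 to day 4 in KO (33.3% and 32.9% of all genes), 9 rose and 9 fell in WT (26.9% and 21.6% of all genes), and 8 were higher and 10 lower in KO than in WT diff_XEN (22.1% and 24.9% of all genes). The share that fell in KO was that of all genes. Phc1 fell in KO (-2.27 ± 0.20) and in WT (-2.45 ± 0.20), Bmi1 rose in KO (1.68 ± 0.17) and in WT (1.44 ± 0.17), and Suz12, a core subunit of PRC2, was lower in KO diff_XEN (-2.27 ± 0.23). In WT diff_XEN 8 were higher and 10 lower than in WT mESC (27.2% and 25.3% of all genes). The lists that follow are read against these same shares. Of 10 genes of trithorax complexes and H3K27 demethylases, which act against Polycomb silencing, 5 rose and 3 fell in KO, and 3 rose and 3 fell in WT. Kmt2a rose in KO (2.36 ± 0.30) and Dpy30 fell in KO (-2.18 ± 0.23) and in WT (-1.19 ± 0.22). In WT, Kmt2a had 181 and 237 CPM at day 4, against 77.5 and 132 CPM at day 1. In diff_XEN 1 was higher and 2 lower in KO, namely Kdm6b (0.93 ± 0.18), Rbbp5 (-1.41 ± 0.17) and Kdm6a (-0.96 ± 0.22), and in WT diff_XEN 3 were higher and 5 lower than in WT mESC.

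Of 9 non-coding genes tested inside the clusters, 7 rose and 1 fell from day 1 to day 4 in KO, and 4 rose and 1 fell in WT. Halr1, in the Hoxa region, was the one that fell, in KO (-2.76 ± 0.27) and in WT (-2.84 ± 0.28), whereas Hoxb5os rose in KO (5.34 ± 0.72) and in WT (3.60 ± 0.70). In diff_XEN 5 of 11 were higher and 1 lower in KO, among them Hoxb5os (3.76 ± 0.59) and Haglr (3.60 ± 0.63), and in WT diff_XEN 7 of 11 were higher and 1 lower than in WT mESC. The strand setting of the counting is not given in the sources used here, so Hoxb5os and the overlapping Hoxb5 may share reads. Hoxb5 averaged 16.8 ± 2.11 CPM in KO day 4 and 16.7 ± 1.76 CPM in KO day 1, and 8.16 ± 0.613 CPM in WT day 4 and 10.7 ± 2.20 CPM in WT day 1 (SD, n = 2 each), and it passed the test in neither genotype. In diff_XEN Hoxb5 was higher in KO as well (2.82 ± 0.39). Genes just outside the clusters were mixed, with 5 of 13 up and 5 down in KO, 2 up and 4 down in WT, 4 of 11 higher and 3 lower in KO diff_XEN than in WT diff_XEN, and 0 of 13 higher and 6 lower in WT diff_XEN than in WT mESC. Ttll6, next to the Hoxb cluster, fell in KO (-3.08 ± 0.33) and in WT (-3.25 ± 0.34). Of 6 related homeobox genes outside the clusters (Gbx, En, Meox, Pdx1 and kin), 2 rose and 3 fell in KO, and 2 rose and 1 fell in WT, with En1 rising in KO (3.97 ± 0.59) and in WT (3.32 ± 0.67). In diff_XEN 1 of 7 was higher and 1 lower in KO, and 2 of 7 were higher and 1 lower in WT diff_XEN than in WT mESC.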

How the data were processed

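Polyadenylated RNA of 22 libraries in 11 groups of 2 was used, 16 from days 1 to 4 and 6 from diff_XEN and WT mESC. Groups and days come from the labels. The undifferentiated KO group was not analysed here, and 3 columns of the series table that no label ties to a sample were used in no step. The deposited values are raw read counts per gene. The tools featureCounts 1.4.5-p1 and STAR 2.5.0c, with the build mm10, are named with no settings, per the submitters' processing notes. The annotation release and strand setting are not given in the sources used here, and the labels describe a reverse-stranded protocol, so reads of overlapping or antisense genes may be shared.

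Counts were tested with edgeR 4.0.16 (R 4.3.3), using TMM scaling, filterByExpr by group, a robust quasi-likelihood fit with 1 mean per group, and Benjamini-Hochberg adjustment over all genes tested. A gene was called at an adjusted p below 0.05. All 16 libraries of days 1 to 4 shared one fit. The KO against WT diff_XEN test used the 4 diff_XEN libraries and the WT diff_XEN against WT mESC test all 6. CPM are counts scaled to a common library total, and the SE is the log2 fold change divided by the root of its F statistic. For a group at 0 counts a fold is a lower bound from a floor of 3 counts over the group, and for 1 to 3 counts a ratio of counts with an exact 95% interval, which covers counting error only. The alternatives were DESeq2 1.42.0 (Wald test), its size factors, no expression filter, the compared libraries alone, a replicate block and leaving out each library. The fits were tested on simulated data.

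Hox genes called in a comparison were named with values, up to 12 by smallest p; Hoxb1 and Hoxb8 were given throughout, and from each other list the called genes of smallest p. Some genes are not reported here, though the counts and sums include them. The members and all lists were chosen with earlier results of these data known.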

Additional observations from a re-analysis of the deposited data

Results flagged for a closer look

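The change between days 1 and 4 differed between the genotypes for several Hox genes by the interaction test of edgeR. The difference of log2 changes, KO minus WT, was 1.77 for Hoxa3, 1.71 for Hoxa9, 1.65 for Hoxb3 and 1.98 for Hoxc4, positive in each case. Of the 5 Hox genes called by this test, 0 kept the call under every alternative. The groups had 2 libraries each, too few to look for a single library far from its group.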

How the results depend on the processing

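No called Hox gene changed direction under the alternatives run. The counts of called Hox genes between day 4 and day 1, in diff_XEN and against WT mESC stayed within 1.5 times under the alternatives run. At day 4 against day 1 in WT, 1 Hox gene was lower with DESeq2's size factors or its Wald test. With the compared libraries alone 2 were lower in WT. Without the expression filter 2 were lower in WT and 1 in KO. Without the expression filter the day to day steps gave 94 calls against 57, and KO against WT gave 7 against 2 at day 1, 3 against 1 at day 2, 5 against 1 at day 3 and 15 against 4 at day 4, with 11 against 5 for the difference of changes. With the compared libraries alone these were 4 at day 1, 0 at day 3, 7 at day 4 and 8 for the difference of changes. DESeq2's Wald test gave 2 at day 2 and 12 at day 4. With 1 library left out the ranges were 0 to 1 at day 1, 0 to 0 at day 2, 0 to 5 at day 3, 0 to 1 at day 4 and 0 to 4 for the difference of changes. The deviations of same-numbered libraries correlated above 0.1 in 7 of 28 pairs of groups (-0.18 to 0.39, highest between KO day 4 and WT day 4), not in every pair, so the numbers were not taken to pair samples. With the replicate number as a block, day 4 gave 9 calls against 4, and the other counts were 29 for KO and 18 for WT day 4 against day 1, 64 for the steps, 2, 1 and 1 at days 1 to 3, and 5 for the difference. The cause was not tested. No paired analysis was possible for diff_XEN because its columns carry no replicate numbers.

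Depth limits what can be said of Hoxa13, Hoxc11, Hoxc12, Hoxd3, Hoxd4, Hoxd10, Hoxd11 and Hoxd12, which had 10 to 49 counts over each day 4 group. The same holds for Hoxa11, with 4 and 3 counts in the KO day 4 libraries. With 2 libraries a group, most differences between KO and WT within a day rest on every library used.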
